A study of Rattus norvegicus with 12 samples.

Results

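Passaged rat small hepatocytes plated on laminin-511 (LN511, 3 arrays) were compared with mature hepatocytes from fresh liver (MH, 3 arrays), across all genes of a single-colour Agilent array that measures the RNA level at each probe. These 6 arrays were taken by their group labels from the 12 arrays of the series, which also holds small hepatocytes on laminin-111 (LN111, 3 arrays) and on Matrigel (Mat, 3 arrays). Every sample came from the liver of F344 rats, described as positive for dipeptidylpeptidase IV (DPPIV+), with no age given. The small hepatocytes were cultured without serum, and cells carrying CD44 were collected with magnetic beads on day 9 after plating. They were then grown on Matrigel, and cells of passage 2 were kept for 3 h on the coating that names their group. Their medium held 10 ng/mL epidermal growth factor (EGF), 10 mM nicotinamide, dexamethasone and insulin-transferrin-selenium. The MH cells were isolated from fresh liver; the study's design lists neither a culture on a coating nor a CD44 sort for them. The comparison therefore sets culture, sort, passage and coating together against cells isolated from fresh liver. Nothing in the labels ties the 3 samples of a group to different rats or separate dishes. The p-values therefore speak only of the variation among these samples, part or all of which may be technical. In RNA from many cells, fewer cells of a type and less RNA per cell cannot be told apart.

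Small hepatocytes are cells of the adult rat liver that divide in culture, form colonies of small cells and carry CD44, a receptor for hyaluronan that resting hepatocytes lack. Mature hepatocytes carry out most liver functions, among them making plasma proteins, bile acids, urea and glucose and oxidising drugs with cytochromes P450. Laminins are 3-chain proteins of the basement membrane. Laminin-511 holds the chains encoded by Lama5, Lamb1 and Lamc1. It is bound by integrins that pair the alpha chain from Itga3 with the beta chain from Itgb1. Integrins that pair the alpha chain from Itga6 with a beta chain from Itgb1 or Itgb4 bind it as well. Integrins bound to matrix recruit adaptor proteins that link them to actin and to kinases at focal adhesions.

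A level is the log2 of a probe's processed signal minus the 75th percentile of its array, so that 0 stands for that percentile and 1 unit is a 2-fold difference. Levels of different genes come from different probes and are not set against each other. Between 58.03% and 58.84% of the spots were well above background on the LN511 arrays and between 52.18% and 54.21% on the MH arrays. The LN511 arrays lay on one slide and the MH arrays on another, with no slide holding both, so slide and group cannot be told apart within these 6 arrays. Only the Mat arrays lay on both slides, replicates 1 and 2 on that of MH and replicate 3 on that of LN511. A slide block in the fit therefore rests on these Mat arrays alone. A call lost with it can reflect lower precision as well as a slide effect. With slide as a fixed block in the fit of all 12 arrays, 8389 genes passed in place of 12794. A named gene that no longer passed with that block is given with its adjusted p. LN511 replicates 1 and 2 differed most (SD of the log2 difference 0.903 over the probes, against 0.578 for replicates 1 and 3). Replicate 2 was lower in many secreted liver proteins and in several lists of liver enzymes and transporters.

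Of 18927 genes tested, 12794 (67.6%) differed between LN511 and MH at an adjusted p under 0.05 (limma, Benjamini-Hochberg). In LN511, 5892 genes (31.1%) were higher and 6902 (36.5%) were lower. Of all genes tested, 9244 (48.8%) passed and differed by at least 2-fold, with 4445 (23.5%) higher and 4799 (25.4%) lower. Differences of at least 4-fold were found for 2543 genes that were higher and 2448 that were lower. In 6347 genes (33.5%) all 3 LN511 arrays were above all 3 MH arrays, and in 7719 (40.8%) all 3 were below. With so large a share of genes called, a share of a gene list near these values says nothing about the list. The median difference over all genes tested was -0.11. It moved to 0.18 with quantile scaling, 0.33 with the percentile taken over detected probes and 0.41 without scaling. The share of higher genes among those called moved with it, from 46.1% to 55.9%, 62.6% and 65.2%, and with normexp background correction it fell to 35.2%. Differences near these shifts can change sign with the scaling, and are named where they do. Counts of 10 or more in a gene list are given a second time where leaving out an array, the block, the background correction or the scaling moved them by over 1.5 times. A stricter filter keeps only genes measured well above background on all 6 arrays, which leaves out genes bright in one group alone. It tests 1340 of the 1761 list members, and its counts are given here where a list's median turned sign and otherwise in the closing section. Over all genes it tests 13518, with 3242 higher, 5552 lower and a median of -0.25. A list near these values under that filter says nothing about the list.

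**Figure D1:**
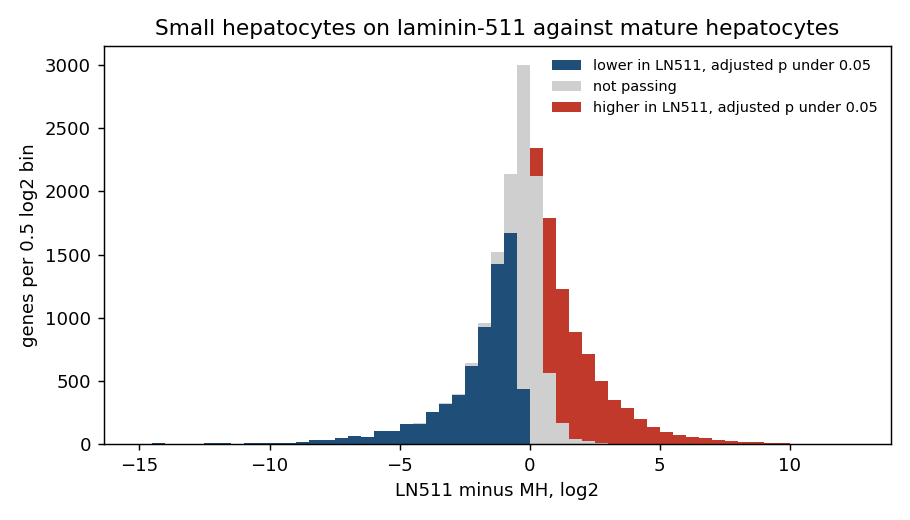
Histogram of the LN511 minus MH difference (log2) over the 18927 genes tested, coloured by whether a gene passed higher in LN511, passed lower or did not pass. Both tails are long, with 2543 genes higher and 2448 lower by at least 4-fold, and the median lies at -0.11.

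Marker genes were read first as a check of the labels. Of 10 hepatocyte markers, 9 were lower in LN511 and none higher, with a median difference of -2.43, or 5 lower with quantile scaling. Albumin (Alb), the main plasma protein, stood at 6.53, 6.12 and 6.48 on the LN511 arrays and at 7.22, 7.18 and 7.49 on the MH arrays. The LN511 arrays were all below the MH arrays, by a small margin (-0.92 ± 0.19, adjusted p = 0.00183), and with quantile scaling the sign turned (0.36, adjusted p = 0.0223). It did not pass without scaling (adjusted p = 0.132) or with the percentile over detected probes (adjusted p = 0.0515). The serum carrier transthyretin (Ttr) differed by -1.14 ± 0.19, adjusted p = 0.000325 and transferrin (Tf), the iron carrier, by -1.54 ± 0.25, adjusted p = 0.000325, and neither passed with quantile scaling (adjusted p = 0.944 and 0.477). All 8 biliary and progenitor markers were higher, with a median of 7.54. It was 4.5 with normexp background correction. With the bounds explained below for 5 members not well above background on any MH array, it was 6.26. Cd44, the protein used for the sort, was measured on all LN511 arrays (2.32, 2.83 and 2.66) and was not well above background on any MH array (-6.43, -5.69 and -6.51). As the protein chosen for the sort, it checks the labels and is no finding. Dpp4, the gene of the enzyme that the rats are described as carrying, was measured on all 6 arrays (0.5, 2.28 and 1.37 on the LN511 arrays and 1.5, 1.55 and 1.53 on the MH arrays) and did not pass (-0.14 ± 0.5, adjusted p = 0.814), with a sign that depends on the scaling.

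Markers of the other liver cells moved as well. Of 19 Kupffer cell and macrophage markers tested, 18 were lower in LN511 and none higher (median -5.24). The summed level of the list (a sum of linear values relative to the 75th percentile) was 51 to 52.3 on the MH arrays. In LN511 replicates 1, 2 and 3 it was 8.47, 1.23 and 1.58, with list medians of -2.72, -7.19 and -5.72 against the MH mean. Clec4f, a lectin of Kupffer cells, stood at -5.42, -6.23 and -6.09 in LN511 and 3.68, 3.44 and 3.68 in MH (-9.51 ± 0.34, adjusted p = 1.5e-08). Of 18 sinusoidal endothelial markers, 14 were lower and 1 higher (median -3.75). Over the 6 members that the strict filter tests, the median was only -0.57, against -0.25 over all genes. Lyve1, a hyaluronan receptor of that endothelium, was not well above background on any LN511 array and was lower by at least 95.9-fold (adjusted p = 3.35e-07). The part of macrophages and endothelium in the results on immune and vascular genes was not tested.

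Mesenchymal markers varied inside the LN511 group as well. The stellate cell and fibroblast list summed to 22.3, 3.93 and 8.69 in LN511 replicates 1, 2 and 3 and to 14.1 to 18.9 in MH. Of its 17 tested members 2 were higher and 8 lower in LN511, or 4 lower with slide as a fixed block and 5 lower without LN511 replicate 2. Col1a1, a chain of fibrillar collagen, was at 2.8, 0.07 and 1.04 against -6.15, -7.86 and -4.95. Pdgfrb, a growth factor receptor of pericytes and stellate cells, was at -3.21, -5.12 and -4.39 against -1.26, -1.99 and -1.39 (-2.69 ± 0.55, adjusted p = 0.00145). Of 8 mesothelial markers 6 were higher and 1 lower. Msln, the surface protein mesothelin, differed by 9.07 ± 0.57, adjusted p = 4.3e-07, while Wt1, a transcription factor of mesothelium, was well above background on 1 of 3 LN511 arrays and did not pass (1.48 ± 0.86, adjusted p = 0.153). The list summed to 17.3 to 62.7 on the LN511 arrays, with replicate 2 highest, and includes Krt19, which is also a biliary keratin. Of 4 erythroid markers 3 were lower, and of 4 lymphocyte and neutrophil markers 2 were lower. Of 9 smooth muscle markers 3 were higher, none was lower and 6 did not pass (median 0.88). Their summed level was 4.99 to 5.86 on the LN511 arrays and 2.5 to 3.3 on the MH arrays.

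Promoter sequences of the hepatocyte genes Alb, Fabp1, Cyp3a2 and Cps1 and of Ccn2 and Anxa1, which rose, are shown, because the factors HNF1, HNF4 and C/EBP are known to bind promoters of hepatocyte genes and TEAD factors, the partners of YAP, that of Ccn2. RefSeq promoters (rat assembly GRCr8, 250 bases before to 50 after the start) were found for 10888 of the 18927 genes tested (57.5%), for 1353 of the 2543 genes at least 4-fold higher and for 1510 of the 2448 genes at least 4-fold lower. The bases before the start are printed 5′ to 3′ on the gene's strand, with capitals for matches to the motifs below on either strand. Alb lies at chr14:17906980-17907229 (minus strand), Fabp1 at chr4:104749090-104749339 (plus), Cyp3a2 at chr12:14343858-14344107 (minus), Cps1 at chr9:76063613-76063862 (plus), Ccn2 at chr1:22624615-22624864 (minus) and Anxa1 at chr1:227303733-227303982 (minus).
Alb: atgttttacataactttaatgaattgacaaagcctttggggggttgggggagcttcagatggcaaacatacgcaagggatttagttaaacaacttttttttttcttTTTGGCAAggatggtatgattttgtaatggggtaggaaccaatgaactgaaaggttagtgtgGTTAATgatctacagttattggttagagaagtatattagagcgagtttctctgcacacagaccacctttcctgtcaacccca
Fabp1: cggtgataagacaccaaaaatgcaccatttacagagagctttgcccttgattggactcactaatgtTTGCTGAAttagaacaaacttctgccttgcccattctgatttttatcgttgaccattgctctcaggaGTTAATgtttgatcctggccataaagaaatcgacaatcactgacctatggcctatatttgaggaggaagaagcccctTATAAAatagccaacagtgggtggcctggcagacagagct
Cyp3a2: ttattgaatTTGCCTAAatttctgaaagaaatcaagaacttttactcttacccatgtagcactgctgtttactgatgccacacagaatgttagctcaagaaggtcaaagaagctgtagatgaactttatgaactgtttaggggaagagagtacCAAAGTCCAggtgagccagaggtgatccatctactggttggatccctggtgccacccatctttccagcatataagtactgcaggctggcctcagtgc
Cps1: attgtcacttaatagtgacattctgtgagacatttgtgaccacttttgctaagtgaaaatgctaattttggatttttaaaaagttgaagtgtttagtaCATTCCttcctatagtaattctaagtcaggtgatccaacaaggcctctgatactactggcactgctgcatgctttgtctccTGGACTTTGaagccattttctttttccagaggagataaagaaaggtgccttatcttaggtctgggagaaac
Ccn2: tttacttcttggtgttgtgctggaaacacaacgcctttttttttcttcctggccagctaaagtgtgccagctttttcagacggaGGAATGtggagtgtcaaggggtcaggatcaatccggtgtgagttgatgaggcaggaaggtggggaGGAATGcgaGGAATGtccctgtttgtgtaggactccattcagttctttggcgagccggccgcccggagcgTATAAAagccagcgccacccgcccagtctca
Anxa1: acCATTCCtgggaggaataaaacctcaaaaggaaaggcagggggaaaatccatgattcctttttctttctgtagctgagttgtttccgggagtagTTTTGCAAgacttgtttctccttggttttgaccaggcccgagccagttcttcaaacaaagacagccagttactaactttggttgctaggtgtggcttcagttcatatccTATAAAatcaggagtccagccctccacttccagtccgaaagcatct

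The motifs searched on both strands were the TATA box TATAAA, the HNF1 letters GTTAAT, the HNF4 direct repeat CAAAGNCCA, the C/EBP letters TTGCNNAA and, contained in them, the palindrome TTGCGCAA, the AP-1 site TGANTCA and the TEAD letters GGAATG. In the Alb sequence the HNF1 letters span bases -82 to -77 and the C/EBP letters bases -144 to -137, counted back from the start. Cyp3a2 holds the HNF4 direct repeat at -97 to -89 and the C/EBP letters from -241. Cps1 holds the direct repeat at -71 to -63 and GGAATG from -152. Ccn2 holds GGAATG 3 times, starting at -166, -101 and -92, before a TATA box that starts at -31. Fabp1 holds the C/EBP letters from -184, GTTAAT from -117 and TATAAA from -40, and Anxa1 holds GGAATG from -248, the C/EBP letters from -155 and TATAAA from -46. Over 300 bases, GTTAAT was found in 7.15% of promoters of genes at least 4-fold lower, in 4.43% of those at least 4-fold higher and in 4.88% of all genes tested. CAAAGNCCA was found in 3.11%, 1.26% and 1.67%, and TTGCNNAA in 12.8%, 7.17% and 9.04%. The palindrome TTGCGCAA was in 0.265%, 0.0739% and 0.23%. TATAAA was in 12.1% of the lower, 9.31% of the higher and 8.12% of all. TGANTCA was in 6.03%, 6.73% and 5.34%, and GGAATG in 13.2%, 13.8% and 11.3%. The median ratio of observed to expected CpG was 0.47 in the lower genes, 0.68 in the higher genes and 0.74 over all. Over all 27457 promoters of the table the shares were 7.37% for GTTAAT, 1.73% for CAAAGNCCA, 10.5% for TTGCNNAA, 14.3% for TATAAA, 7.33% for TGANTCA and 13.9% for GGAATG. Base composition differed between the sets, and these shares are a description with no test.

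Mup4l1, of the major urinary proteins that carry pheromones, stood at -2.8, -5.36 and -4.26 in LN511 and at 7.65, 7.61 and 7.95 in MH (-11.88 ± 0.65, adjusted p = 1.81e-07). Its relatives Mup5, Mup4l4, Mup4 and Obp3 and the urinary protein Rup2 fell as well, with differences between -11.71 and -10.17. The Mup genes are near-identical copies whose probes can share signal, so they do not count as separate results. Car3, a carbonic anhydrase, differed by -9.84 ± 0.83, adjusted p = 3.38e-06, and Gstp3, a glutathione transferase, by -10.40 ± 0.29, adjusted p = 4.81e-09. Fabp1, which carries fatty acids in the cytosol, was at 1.12, -4.98 and -3.57 in LN511 against 7.92, 7.85 and 8.16 in MH. Its LN511 replicate 1 stood far above the other LN511 arrays and still far below every MH array (-10.45 ± 1.68, adjusted p = 0.000302).

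Some genes fell below what the array could measure. Where no array of one group measured a gene well above background, only a bound can be given, taken against the lowest signal of each array that counted as above background. By that bound the male-specific cytochrome P450 Cyp2c13 was lower by at least 10300-fold (adjusted p = 2.51e-09) and Cyp3a2, the main testosterone-oxidising P450 of the male rat, by at least 7840-fold (adjusted p = 4.51e-09). Cyp3a2 stood at 6.54, 6.69 and 6.03 on the MH arrays. The sulfotransferases Sult1e1 and Sult2a1, which add sulfate to oestrogens and to other steroids, were lower by at least 7130-fold and 2460-fold. Apof, an apolipoprotein, was lower by at least 5850-fold and Slco1a4, an uptake transporter of the cell surface, by at least 2430-fold. In all, 769 genes were well above background on every MH array and on no LN511 array, and 1861 the reverse. List medians keep the fitted difference for such genes, though part of it lies below background. With bounds in its place the median moved from -3.75 to -3.27 for endothelial and from 3.55 to 2.93 for mesothelial markers. It moved from 4.74 to 4.45 for the longer list of progenitor markers. For matrix genes it moved from 1.75 to 1.37 and for EGF ligands and receptors from 1.15 to 0.81.

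Most drug-oxidising and conjugating enzymes were lower. Of 47 cytochromes P450 tested, 39 were lower and 2 higher, with a median of -5.55 (-4.82, -6.53 and -4.99 in LN511 replicates 1, 2 and 3 against the MH mean). Cyp2c11, the main male-specific P450, was at -3.54, -1.48 and -1.75 on the LN511 arrays and 7.37, 6.4 and 7.42 on the MH arrays (-9.32 ± 0.55, adjusted p = 2.96e-07). Cyp2e1, which oxidises ethanol, ranged widely in LN511 (1.31, -3.79 and -0.65) and was steadier in MH (6.15, 7.05 and 5.44), with a difference of -7.26 ± 1.38, adjusted p = 0.000951. Cyp1a2 was as uneven (2.85, -4.07 and 0.66 against 5.13, 5.07 and 4.81; -5.19 ± 1.85, adjusted p = 0.0295), and it no longer passed without LN511 replicate 2 (adjusted p = 0.112) or with slide as a block (adjusted p = 0.0853). Its relative Cyp1a1, induced by aryl hydrocarbons, went the other way: it was not well above background on any MH array and was at 1.81, -0.33 and 2.26 in LN511, at least 161-fold higher (adjusted p = 2.03e-05). The other gene counted as higher, Cyp4a8, has probes of opposite sign (-3.35 and 3.92), so its direction is uncertain. Of 46 conjugating enzymes 37 were lower and 2 higher (median -3.16). Sult1a1, a phenol sulfotransferase, was at 2.05, 1.96 and 2.5 on the LN511 arrays and 6.06, 6.16 and 5.98 on the MH arrays. Gstp1, a glutathione transferase of biliary and dividing cells, was at 4.96, 3.84 and 4.3 on the LN511 arrays and -1.25, -1.28 and -0.89 on the MH arrays, higher by 5.51 ± 0.26, adjusted p = 7.28e-08.

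All 60 tested genes of the urea cycle and of amino acid breakdown were lower, with a median of -4.64. Cps1, the first enzyme of the urea cycle, was well above background on 1 of 3 LN511 arrays, at -4.25, -7.76 and -6.95 against 2.08, 1.6 and 1.92 (-8.19 ± 1.25, adjusted p = 0.000213). Otc and Arg1, which make citrulline and urea, differed by -7.04 ± 1.04, adjusted p = 0.000174 and by -4.66 ± 0.7, adjusted p = 0.000186. Gls2, the liver glutaminase, was close to 0 on every LN511 array (0.01, -0.16 and 0.05) and above 5 on every MH array (5.32, 5.46 and 5.1). The 3 replicates of each group nearly coincided for Gls2 (-5.32 ± 0.16, adjusted p = 6.38e-09), in contrast to Cps1 and Otc. With slide as a block 56 of the 60 were lower.

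Plasma proteins fell unevenly. Of 36 carrier and hormone-binding proteins 30 were lower and 2 higher (median -4.08), and the LN511 replicates stood at -2.41, -5.56 and -3.65 against the MH mean. Without LN511 replicate 2 the median was -2.87. Serpina1, the elastase inhibitor alpha-1-antitrypsin, was at 6.58, 3.55 and 5.95 on the LN511 arrays and 7.7, 7.52 and 7.85 on the MH arrays. Rbp4, the retinol carrier, was at 6.37, 3.91 and 6.11 on the LN511 arrays and 7.45, 7.39 and 7.72 on the MH arrays. In both genes LN511 replicate 2 lay well below the other LN511 arrays, and all LN511 arrays lay below the MH arrays. With all arrays both passed (Serpina1 -2.33 ± 0.89, adjusted p = 0.0384; Rbp4 -2.06 ± 0.73, adjusted p = 0.0278). Serpina1 no longer passed without that replicate (-1.42, adjusted p = 0.148), nor did Rbp4 (-1.28, adjusted p = 0.104), and with slide as a block their adjusted p was 0.0798 and 0.0805. Igfals, which holds insulin-like growth factors in the blood, was not well above background on any LN511 array (at least 366-fold lower, adjusted p = 2.26e-07). Afp, the fetal counterpart of albumin, was at 7.2, 3.52 and 6.79 on the LN511 arrays and 3.63, 2.33 and 3.43 on the MH arrays, and did not pass (2.71 ± 1.1, adjusted p = 0.0501). It passed without LN511 replicate 2 (3.87, adjusted p = 0.00689).

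Of 18 acute phase proteins 11 were lower and 4 higher (median -2.33), with 7 lower without LN511 replicate 2, without MH replicate 1, with quantile scaling or with the percentile over detected probes, and 5 lower with slide as a block. Haptoglobin (Hp), which binds free haemoglobin, was at 6.32, 1.15 and 5.66 on the LN511 arrays and 7.99, 7.9 and 8.2 on the MH arrays. It passed with all arrays (-3.65 ± 1.33, adjusted p = 0.0316) but neither without replicate 2 (-2.04, adjusted p = 0.104) nor with slide as a block (adjusted p = 0.1). Crp, a pattern-binding pentraxin, was lower on every LN511 array (0.25, -2.4 and -0.46 against 5.15, 4.84 and 4.99; -5.86 ± 0.73, adjusted p = 5.19e-05). Lcn2, an iron-chelator-binding protein of inflamed epithelium, was at 0.96, 0.11 and 1.19 in LN511, at least 114-fold above MH (adjusted p = 7.32e-08). Tifa, an adaptor of NF-kB signalling, was higher by 4.74 ± 0.19, adjusted p = 2.71e-08. A2m, a protease inhibitor, was higher, at 4.83, 0.25 and 3.69 on the LN511 arrays and -3.38, -2.02 and -2.54 on the MH arrays (5.57 ± 1.16, adjusted p = 0.00162), and lost its call with slide as a block (adjusted p = 0.139).

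Most clotting and complement genes were lower, with a few that rose. Of 28 coagulation genes 21 were lower and 6 higher (median -3.81). F2, prothrombin, was at 4.87, 1.11 and 3.42 on the LN511 arrays and 7.51, 7.46 and 7.67 on the MH arrays (-4.41 ± 1.16, adjusted p = 0.00658). The fibrinogen chains Fga, Fgb and Fgg differed by -3.21 ± 1.14, -2.8 ± 1.01 and -2.73 ± 0.98, each with LN511 replicate 2 lowest. With all arrays they passed (adjusted p = 0.0289, 0.0302 and 0.03), but none of the 3 did without that replicate (adjusted p from 0.112 to 0.117) or with slide as a block (from 0.0848 to 0.0889). Among the members that rose, Plat, tissue plasminogen activator, was at 5.91, 5.25 and 5.24 on the LN511 arrays and -2.24, -2.49 and -2.2 on the MH arrays (7.77 ± 0.21, adjusted p = 4.62e-09). F3, tissue factor, was higher by 6.77 ± 0.39, adjusted p = 2.45e-07. Of 26 complement genes 23 were lower and 1 higher (median -4.54). C3, the central component, was at 5.36, 2.32 and 4.95 on the LN511 arrays and 7.83, 7.45 and 7.96 on the MH arrays (-3.54 ± 0.9, adjusted p = 0.00544; adjusted p = 0.0527 with quantile scaling), and Mbl2, a mannose-binding lectin, differed by -10.26 ± 0.85, adjusted p = 2.85e-06. The 1 that rose was Cd55, which shields cells from complement (at least 18.5-fold, adjusted p = 1.16e-06).

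**Figure D2:**
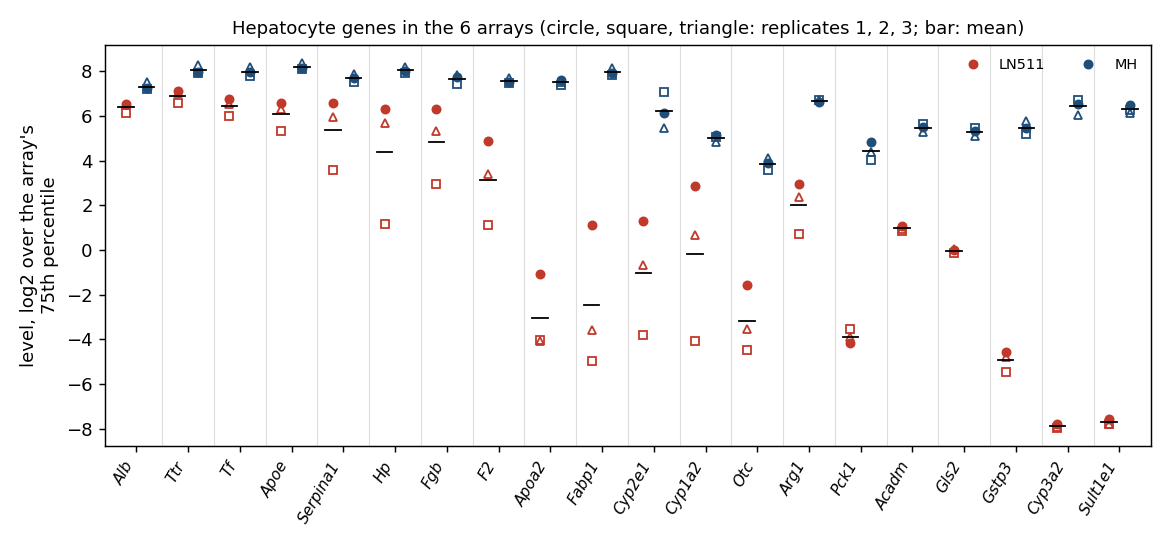
Levels of 20 hepatocyte genes (log2 minus the array's 75th percentile) on the 3 LN511 and 3 MH arrays, with circle, square and triangle for replicates 1, 2 and 3 and a line for each group mean. Secreted proteins such as Alb and Ttr lie close together in the groups, LN511 replicate 2 lies low in Serpina1, Hp and Fgb, and Cyp3a2 and Sult1e1 are not well above background on any LN511 array.

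Lipid and bile acid genes were lower in most cases. Of 27 apolipoprotein and lipoprotein genes 21 were lower and 2 higher (median -4.01). Apoe, which directs remnant uptake, was at 6.59, 5.33 and 6.31 on the LN511 arrays and 8.15, 8.09 and 8.36 on the MH arrays (-2.13 ± 0.4, adjusted p = 0.000826), and it did not pass with quantile scaling (adjusted p = 0.0651). Apoa2, of high-density lipoprotein, fell much further, to -1.08, -4.02 and -4.05 from 7.62, 7.37 and 7.49 (-10.54 ± 1.18, adjusted p = 2.46e-05). Apob, the scaffold of very low-density lipoprotein, differed by -3.83 ± 0.79, adjusted p = 0.0016. Of 33 bile acid genes 26 were lower and 4 higher (median -5.21). Cyp7a1, whose enzyme limits the rate at which bile acids are made, was not well above background on any LN511 array, and its MH arrays were spread widely (1.35, -4.27 and -0.79; at least 39-fold lower, adjusted p = 0.0003). Slc10a1, the main bile acid uptake transporter, differed by -10.09 ± 0.91, adjusted p = 5.34e-06 and Abcb11, the export pump of the canaliculus, by -8.98 ± 1.62, adjusted p = 0.000648. The export pumps Abcb1b and Abcc3 were among those that rose. Abcb1b, a multidrug transporter, was at 3.5, 3.53 and 2.88 on the LN511 arrays and -1.28, -2.24 and -1.43 on the MH arrays (4.95 ± 0.31, adjusted p = 3.91e-07), and Abcc3, of the basolateral membrane, was at least 7.91-fold higher (adjusted p = 4.49e-06).

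Genes of glucose release fell, while glycolytic genes went both ways. Of 23 genes of gluconeogenesis and glycogen 20 were lower and 2 higher (median -3.93). Pck1, which commits carbon to glucose, was at -4.17, -3.55 and -3.91 on the LN511 arrays and 4.81, 4.0 and 4.4 on the MH arrays (-8.28 ± 0.47, adjusted p = 2.28e-07), and G6pc1, which releases free glucose, differed by -7.44 ± 0.6, adjusted p = 2.47e-06. Of 33 glycolytic and hypoxia-related genes 16 were higher and 10 lower, with a median of 0.13 (-0.04 with the strict filter, where 11 were higher and 10 lower). Hk1, a hexokinase of most non-liver cells, was at -2.2, -2.0 and -1.99 in LN511 and not well above background in MH (at least 16.3-fold, adjusted p = 1.1e-08). Pfkp, a phosphofructokinase isoform, was higher by 3.65 ± 0.13, adjusted p = 1.83e-08 and Slc2a1, the general glucose transporter, by 2.92 ± 0.21, adjusted p = 9.22e-07. Aldoa, the muscle-type aldolase, was higher by 2.2 ± 0.14, adjusted p = 5.64e-07. Ldha and Pgk1, enzymes present in both cell states, were lower, with differences of -2.48 ± 0.3, adjusted p = 4.64e-05 and -1.63 ± 0.14, adjusted p = 3.56e-06.

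Nearly all mitochondrial and peroxisomal genes tested were lower. Of 53 genes of fatty acid oxidation, ketogenesis and peroxisomes 51 were lower and none higher (median -2.91). Acadm, the medium-chain dehydrogenase, was at 1.07, 0.86 and 0.95 on the LN511 arrays and 5.48, 5.64 and 5.29 on the MH arrays (-4.51 ± 0.17, adjusted p = 2.18e-08), with little spread in either group. Of 50 respiratory chain subunits 49 were lower and none higher, with a median of -1.95, and 49 were still lower with slide as a block. Ndufb6, of complex I, was at 1.84, 2.04 and 2.0 on the LN511 arrays and 4.39, 4.44 and 4.39 on the MH arrays (-2.45 ± 0.11, adjusted p = 4.88e-08). Cox4i1, of cytochrome oxidase, differed by -1.77 ± 0.11, adjusted p = 4.53e-07. The 3 LN511 replicates had nearly the same list median here (-1.99, -1.99 and -1.91), replicate 2 included.

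Genes of lipid synthesis were mixed and uneven in MH. Of 27 genes of fatty acid and triglyceride synthesis 16 were lower and 1 higher (median -1.74), or 9 lower with slide as a block. Fasn, fatty acid synthase, was at 1.19, 1.21 and 1.78 in LN511 and at 3.88, -1.3 and 3.18 in MH. MH replicate 2 lay several units below the other MH arrays, and the gene did not pass (-0.53 ± 1.07, adjusted p = 0.679) except without that array (-2.14, adjusted p = 0.00156). Fads2, a desaturase, was lower on all LN511 arrays (-4.49 ± 0.34, adjusted p = 1.49e-06). Scd2, a stearoyl desaturase of non-liver tissues, was instead among the largest rises (2.44, 2.77 and 3.32 on the LN511 arrays and -4.51, -4.09 and -4.0 on the MH arrays; 7.04 ± 0.3, adjusted p = 3.72e-08). Of 25 cholesterol synthesis genes 13 were lower and 3 higher (median -0.83). The higher ones included Sqle, squalene epoxidase (1.9 ± 0.34, adjusted p = 0.000622), while Hmgcs1, an early enzyme of the pathway, was lower (-1.65 ± 0.31, adjusted p = 0.000818; adjusted p = 0.0897 with quantile scaling).

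Of 41 hepatocyte transcription factors and receptors 28 were lower and 3 higher (median -2.13). Hnf4a, a nuclear receptor needed for hepatocyte identity, was at 1.29, 0.55 and 1.5 on the LN511 arrays and 4.03, 3.45 and 3.44 on the MH arrays (-2.53 ± 0.38, adjusted p = 0.000176) and so remained measured on every LN511 array. Cebpa, of the C/EBP factors, was at 0.45, 1.14 and 1.04 on the LN511 arrays and 4.87, 4.24 and 4.24 on the MH arrays (-3.57 ± 0.28, adjusted p = 2.14e-06). Nr1h4, the bile acid receptor, and Ghr, the growth hormone receptor, fell further (-5.95 ± 0.25, adjusted p = 3.58e-08 and -6.15 ± 0.3, adjusted p = 9.13e-08). Foxa2, a forkhead factor, did not pass (0.43, 1.57 and 1.07 against 0.64, 2.19 and 2.32; -0.69 ± 0.56, adjusted p = 0.291).

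Genes of both liver zones were lower. Of 20 periportal genes 19 were lower and 1 higher (median -5.2), and of 23 pericentral genes 19 were lower and 1 higher (median -3.6). Sds, serine dehydratase of the periportal zone, was lower by at least 210-fold (adjusted p = 6.8e-07). Glul, glutamine synthetase of the pericentral rim, was at 2.37, 1.62 and 2.84 on the LN511 arrays and 4.45, 3.76 and 3.82 on the MH arrays, a smaller difference (-1.74 ± 0.36, adjusted p = 0.00149; adjusted p = 0.0588 with quantile scaling). The periportal gene that rose was Cdh1, E-cadherin, at 3.92, 4.06 and 3.61 on the LN511 arrays and 0.88, 0.46 and 0.38 on the MH arrays (3.29 ± 0.28, adjusted p = 3.82e-06), and the pericentral one was Slc1a4, a neutral amino acid transporter (2.18 ± 0.51, adjusted p = 0.00313), which lost its call with slide as a block (adjusted p = 0.0984).

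Most progenitor and biliary genes were higher. Of 38 hepatic progenitor and biliary markers 31 were higher and 4 lower, with a median of 4.74, and 31 were higher with slide as a block. Keratin 19 (Krt19) and keratin 7 (Krt7), filaments of bile duct cells, were not well above background on any MH array. Krt19 was at 2.6, 4.74 and 3.57 in LN511, and Krt7 at 3.51, 5.35 and 4.36. Their bounds were at least 845-fold (adjusted p = 2.35e-06) and 1440-fold (adjusted p = 9.65e-07), and both were highest in LN511 replicate 2. Cldn4, a tight junction claudin of duct cells, was at 4.81, 4.12 and 4.57, at least 1540-fold above MH. Sox9, a transcription factor of ductal and progenitor cells, was at 0.64, 0.81 and 0.94 by its brightest probe, and its 4 probes gave differences from 2.71 to 8.13. The adhesion protein Epcam was measured in both groups, at 2.72, 1.87 and 2.13 on the LN511 arrays and -2.4, -2.54 and -2.59 on the MH arrays (4.75 ± 0.3, adjusted p = 4.2e-07). Krt8, a keratin that hepatocytes also make, was higher by 4.1 ± 0.25, adjusted p = 3.19e-07. Dmbt1, a mucin-like protein of ducts, was at least 748-fold higher (adjusted p = 1.53e-07), and Spp1, osteopontin, at least 50-fold. The 4 members that fell were Slc4a2, a bicarbonate exchanger (-1.4 ± 0.23, adjusted p = 0.000394), Kit, a receptor of stem cell factor (-3.56 ± 0.84, adjusted p = 0.00349), Lgr4, a co-receptor of Wnt signalling (-0.92 ± 0.24, adjusted p = 0.00608; adjusted p = 0.251 with slide as a block and 0.294 without scaling), and Thy1, whose probes had opposite signs.

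Annexins and S100 proteins, which bind calcium and membranes, were higher in most cases. Of 21 tested, 18 were higher and none lower (median 3.48). S100a6 was at 4.97, 6.3 and 5.41 on the LN511 arrays and -3.87, -4.74 and -3.19 on the MH arrays (9.49 ± 0.42, adjusted p = 4.7e-08), the largest rise among genes measured on all 6 arrays. Anxa1 was at 3.94, 5.27 and 4.76 on the LN511 arrays and -4.07, -4.22 and -3.14 on the MH arrays (8.47 ± 0.36, adjusted p = 3.62e-08). Anxa2, whose protein pairs with that of S100a10, was higher by 6.88 ± 0.26, adjusted p = 2.01e-08, and S100a10 by 6.96 ± 0.21, adjusted p = 6.63e-09. Other large rises were Cryab, a small heat shock protein (8.18 ± 0.52, adjusted p = 4.36e-07), and Prnp, the prion protein (7.59 ± 0.32, adjusted p = 3.59e-08). Akr1b8, an aldo-keto reductase, was at 4.84, 5.26 and 4.67 on the LN511 arrays and -2.87, -3.03 and -2.65 on the MH arrays (7.77 ± 0.21, adjusted p = 4.63e-09), and Cav1, the scaffold of caveolae, was higher by 7.14 ± 0.56, adjusted p = 1.99e-06. Hspa1a, an inducible heat shock protein, was higher by 7.02 ± 0.28, adjusted p = 2.71e-08.

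Of 34 adhesion receptors 17 were higher and 5 lower (median 0.76). Itga3 was at -0.81, -0.02 and -0.78 in LN511 and not well above background in MH (at least 46.8-fold, adjusted p = 3.88e-07), while Itga6 was measured in both, at -0.79, -0.04 and -0.71 on the LN511 arrays and -2.04, -2.53 and -2.55 on the MH arrays (1.86 ± 0.37, adjusted p = 0.00117). Itgb4, the beta chain of hemidesmosomes, was at 2.67, 4.06 and 3.03 on the LN511 arrays and -2.75, -2.73 and -2.96 on the MH arrays (6.07 ± 0.6, adjusted p = 9.91e-06), and Itgb1, the common beta chain, rose less (1.36 ± 0.13, adjusted p = 9.6e-06). Dag1, dystroglycan, a laminin receptor that is no integrin, did not pass (3.19, 3.45 and 3.38 against 3.5, 3.42 and 3.43; -0.11 ± 0.13, adjusted p = 0.465), and its sign depends on the scaling. Cd9, a tetraspanin that binds integrins, was at least 40.7-fold higher (adjusted p = 7.23e-09). Itga1, a collagen receptor chain, and Sdc2, a syndecan, were lower, with differences of -2.39 ± 0.5, adjusted p = 0.00171 and -3.11 ± 0.15, adjusted p = 8.26e-08.

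Of 45 laminin, collagen and other matrix genes 27 were higher and 5 lower (median 1.75). The chain genes of laminin-511 all rose. Lama5 was at 1.51, 2.17 and 1.75 in LN511 and not well above background in MH (at least 231-fold, adjusted p = 8.26e-08), Lamb1 was higher by 3.42 ± 0.22, adjusted p = 4.94e-07 and Lamc1 by 3.95 ± 0.22, adjusted p = 1.69e-07. Col4a1, of basement membrane collagen, was higher by 4.04 ± 0.29, adjusted p = 9.55e-07. Nid1, which links laminin to that collagen, and Tgfbi, a matrix protein that binds integrins, were lower, with differences of -2.16 ± 0.41, adjusted p = 0.000991 and -4.5 ± 0.74, adjusted p = 0.000345. Col3a1, a fibrillar collagen, was at 0.05, -3.56 and -2.0 against -0.19, 1.11 and 0.94, spread over several units in LN511 with replicate 1 highest, as in the stellate cell and fibroblast list above. It passed with all arrays (-2.46 ± 0.85, adjusted p = 0.0255), but not without LN511 replicate 2 (adjusted p = 0.0976) or with slide as a block (adjusted p = 0.126). Of 31 matrix proteases and inhibitors 23 were higher and 3 lower (median 2.15), or 14 higher with slide as a block or with normexp background correction. Timp1 and Timp2, inhibitors of metalloproteases, were higher by 4.92 ± 0.59, adjusted p = 3.94e-05 and 4.63 ± 0.25, adjusted p = 1.7e-07, and Mmp2, gelatinase, by 3.23 ± 0.46, adjusted p = 0.000123.

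Actin-linked genes were higher in the majority of cases. Of 68 focal adhesion and cytoskeletal genes 42 were higher and 4 lower (median 1.37). Vim, vimentin, was at 3.6, 4.87 and 4.55 on the LN511 arrays and -3.07, -2.87 and -2.71 on the MH arrays (7.22 ± 0.36, adjusted p = 9.77e-08), and Ezr, which ties actin to the membrane, was higher by 6.82 ± 0.4, adjusted p = 2.59e-07. Tes and Zyx, LIM proteins of focal adhesions, were higher by 6.2 ± 0.27, adjusted p = 3.99e-08 and 2.87 ± 0.21, adjusted p = 1.08e-06. Vcl, vinculin, was higher by 1.75 ± 0.25, adjusted p = 0.000146. Rdx, radixin, a relative of ezrin typical of hepatocytes, was lower (-1.14 ± 0.15, adjusted p = 8.73e-05; adjusted p = 0.12 with quantile scaling and 0.0934 without scaling). Of 43 junction and polarity genes 24 were higher and 7 lower (median 0.87), or 3 lower with slide as a block, quantile scaling, no scaling or the percentile over detected probes. Pkp1, a desmosomal plaque protein, was at least 339-fold higher (adjusted p = 5.39e-08) and Ocln, occludin, was higher by 2.19 ± 0.25, adjusted p = 2.96e-05. The gap junction genes moved apart: Gja1, connexin 43, was at 1.22, 1.61 and 1.27 on the LN511 arrays and -2.82, -2.46 and -2.88 on the MH arrays, and Gjb1, the main connexin of hepatocytes, was at -0.65, -0.85 and -1.26 on the LN511 arrays and 2.09, 2.15 and 2.09 on the MH arrays.

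**Figure D3:**
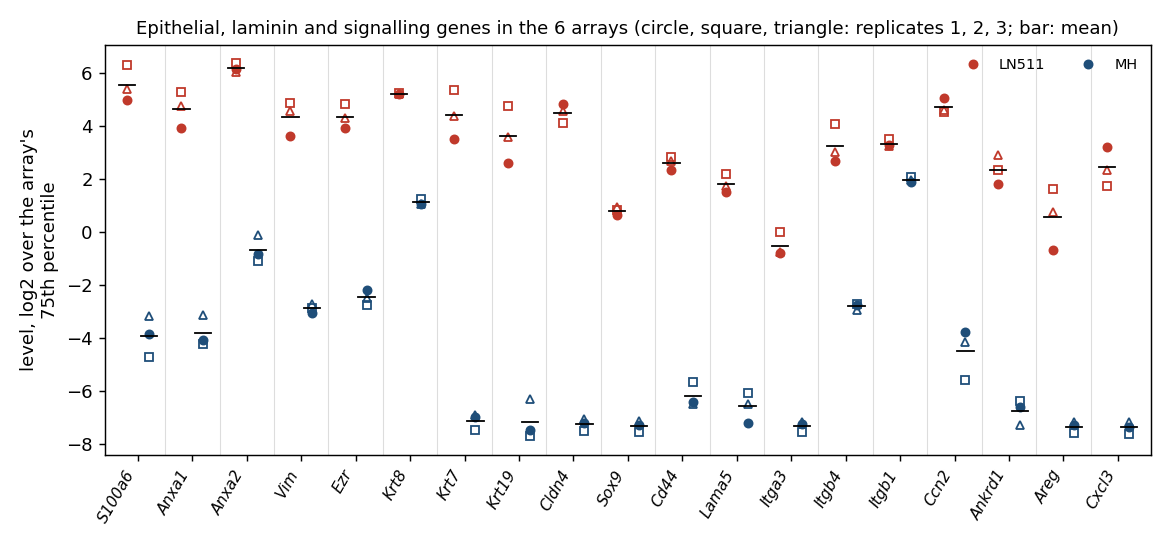
Levels of 19 epithelial, laminin, adhesion and signalling genes (log2 minus the array's 75th percentile) on the 3 LN511 and 3 MH arrays, with a symbol per replicate and a line per group mean. All LN511 points lie above the MH points, and Itgb1 shows the smallest gap.

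Most immediate-early genes and feedback inhibitors of growth factor signals were higher. Of 42 immediate-early and AP-1 genes 34 were higher and 2 lower (median 2.24). Fosb was at -0.57, -0.05 and 0.16 in LN511 and not well above background in MH (at least 59.3-fold, adjusted p = 4.66e-07), and Klf4 and Klf6, zinc-finger factors, were higher by 6.86 ± 0.27, adjusted p = 2.71e-08 and 4.11 ± 0.19, adjusted p = 7.13e-08. Fos was at -0.38, 0.53 and 0.31 on the LN511 arrays and -1.76, -4.36 and -2.42 on the MH arrays (3.0 ± 0.54, adjusted p = 0.000611). Of 20 feedback inhibitors of MAP kinases 15 were higher and 2 lower (median 2.1). Their summed level, in which bright genes weigh most, went the other way, with 42 to 47 on the LN511 arrays and 57.2 to 84.1 on the MH arrays. Dusp5, a phosphatase acting on ERK, was at 3.62, 3.85 and 3.59 on the LN511 arrays and -0.15, 0.58 and 0.3 on the MH arrays (3.45 ± 0.21, adjusted p = 3.68e-07), and Errfi1, which inhibits the EGF receptor, was lower (-2.01 ± 0.36, adjusted p = 0.00062).

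Of 18 EGF ligands, ERBB receptors and related genes 10 were higher and 5 lower (median 1.15), or 6 higher with normexp background correction. Their summed level was lower in LN511, at 25.3 to 28.8 against 58.9 to 97.6 on the MH arrays. With the strict filter 10 were tested, 3 higher and 4 lower, and the median turned to -0.13, against -0.25 over all genes. Areg, amphiregulin, was at -0.69, 1.61 and 0.75 in LN511 (at least 99.8-fold, adjusted p = 1.88e-05), and Hbegf and Ereg, further EGF receptor ligands, were at least 46.9-fold and 12.9-fold higher. Egf itself was lower, at -5.06, -4.99 and -5.16 on the LN511 arrays and -1.64, -2.05 and -1.93 on the MH arrays (-3.2 ± 0.19, adjusted p = 2.98e-07). Egfr, the receptor, was at 0.18, -0.19 and 0.0 on the LN511 arrays and 3.47, 1.83 and 2.54 on the MH arrays (-2.62 ± 0.35, adjusted p = 7.98e-05), and Erbb2, its partner, was at least 33.5-fold higher (adjusted p = 6.15e-09). Erbb3, another receptor of the family, was lower (-1.07 ± 0.35, adjusted p = 0.0207). It did not pass without LN511 replicate 2 (adjusted p = 0.0756), without MH replicate 2 or 3 (adjusted p = 0.0566 and 0.0542), without scaling (adjusted p = 0.236) or with the percentile over detected probes (adjusted p = 0.143). Hgf, the ligand of Met made by non-parenchymal liver cells, was lower by at least 14.8-fold (adjusted p = 1.65e-05), beside the lower endothelial markers. The medium of the small hepatocytes held EGF, whose part in these values was not tested.

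Of 29 YAP and TEAD target genes 21 were higher and 3 lower (median 2.02). Ccn2, a matricellular protein whose promoter is printed above, was at 5.04, 4.51 and 4.61 on the LN511 arrays and -3.77, -5.58 and -4.17 on the MH arrays (9.22 ± 0.44, adjusted p = 7.35e-08). Ankrd1, an ankyrin-repeat protein, was at 1.82, 2.32 and 2.9 in LN511 and not well above background in MH (at least 346-fold, adjusted p = 1.96e-07), and Ccn1 was higher by 4.84 ± 0.35, adjusted p = 1.16e-06. Yap1 itself was lower by its brightest probe and higher by another (-1.19 and 0.82), so its direction is uncertain. Of 32 TGF-beta family genes 19 were higher and 3 lower (median 1.44). Tgfb2, a ligand, was at 0.06, -0.1 and -0.11 (at least 65.7-fold, adjusted p = 1.01e-08), and Fst, follistatin, which blocks activins, at least 79.3-fold higher. Inhbc and Inhbe, activin chains made by hepatocytes, were lower, with differences of -7.21 ± 0.87, adjusted p = 4.2e-05 and -4.09 ± 0.64, adjusted p = 0.000267. Of 32 Notch and Wnt genes 17 were higher and 8 lower (median 0.82), or 9 higher with slide as a block. With the strict filter 13 were tested, 2 higher and 6 lower, and the median turned to -0.56, against -0.25 over all genes. Jag1, a Notch ligand of bile duct cells, was higher by 3.88 ± 0.37, adjusted p = 7.06e-06, and Wnt11 was at least 80.7-fold higher (adjusted p = 5.79e-07).

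Chemokines and interferon-stimulated genes moved in both directions. Of 41 chemokines and cytokines 21 were higher and 13 lower (median 1.65). With the strict filter 16 were tested, 6 higher and 7 lower, and the median turned to -0.9, against -0.25 over all genes. Cxcl1, which attracts neutrophils, was at 4.74, 4.1 and 4.52 on the LN511 arrays and -1.25, -4.49 and -1.63 on the MH arrays (6.91 ± 0.84, adjusted p = 4.39e-05), and its relative Cxcl3 was at least 366-fold higher (adjusted p = 4.51e-07). Ccl2, which attracts monocytes, was at 4.98, 2.27 and 3.7 on the LN511 arrays and -5.74, -5.01 and -5.03 on the MH arrays (8.91 ± 0.74, adjusted p = 2.89e-06). Ccl6 and Il1a, made by macrophages, were lower by at least 269-fold and 50.8-fold, beside the lower Kupffer cell markers given above. Of 23 NF-kB genes 14 were higher and 3 lower (median 1.42), or 9 higher with slide as a block. Relb, a subunit, was at 1.45, 1.37 and 1.55 on the LN511 arrays and -2.26, -2.42 and -2.88 on the MH arrays (3.97 ± 0.23, adjusted p = 2.45e-07), and Tnfaip3, a feedback inhibitor, was higher by 5.54 ± 0.48, adjusted p = 3.89e-06. Of 25 interferon-stimulated genes 17 were lower and 4 higher (median -1.44). Oas1a was lower by at least 96.5-fold (adjusted p = 2.71e-08) and Bst2, tetherin, was lower too (-4.33 ± 0.28, adjusted p = 5.58e-07), whereas Rsad2, viperin, was higher, at 1.02, 2.1 and 2.07 on the LN511 arrays and -2.38, -1.68 and -1.79 on the MH arrays (3.69 ± 0.32, adjusted p = 3.99e-06).

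Cell cycle genes differed by smaller amounts. Of 23 G1 cyclins and inhibitors 14 were higher and 2 lower (median 1.15), or 9 higher with slide as a block. Ccnd1, cyclin D1, was at 1.63, 2.85 and 2.2 on the LN511 arrays and 0.34, 0.28 and -0.09 on the MH arrays (2.05 ± 0.41, adjusted p = 0.00132). The CDK inhibitors Cdkn2a and Cdkn2b were also higher, by 3.97 ± 0.37, adjusted p = 7.15e-06 and 4.16 ± 0.31, adjusted p = 1.34e-06. Of 38 replication genes 18 were higher and 5 lower (median 0.53), or 10 lower with slide as a random block. Pcna, the sliding clamp, was at 0.8, 1.01 and 0.87 on the LN511 arrays and -0.69, -0.65 and -0.48 on the MH arrays (1.5 ± 0.16, adjusted p = 1.55e-05), and Mcm2, of the replicative helicase, was higher by 1.19 ± 0.23, adjusted p = 0.00098. Of 42 mitosis genes only 7 were higher and 4 lower (median 0.48, or -0.06 with normexp background correction), and 31 did not pass. Without scaling 17 were higher, with the percentile over detected probes 16, with slide as a random block 14, and without MH replicate 3 26 (median 1.35). Mki67, a marker of dividing cells, was at -1.39, -1.7 and -2.21 in LN511 and at -3.46, -3.86 and -1.42 in MH. MH replicate 3 lay among the LN511 arrays for it, and the gene did not pass (1.15 ± 0.56, adjusted p = 0.0904) except without that array (1.89, adjusted p = 0.0013), without scaling or with the percentile over detected probes. The same array stood apart in the medians of the mitosis list: against the LN511 mean the MH replicates had list medians of -1.25, -1.42 and 0.71. The summed level of that list did not set it apart (84.1, 65 and 84.8 in MH replicates 1, 2 and 3). Over the replication list the MH replicates had medians of -0.61, -1.11 and -0.03. That list's summed level was 30 on MH replicate 3, 19.9 and 17.6 on the other MH arrays and 18.4 to 20.7 on the LN511 arrays. Of 26 p53 targets 17 were higher and 2 lower (median 1.19), or 11 higher with slide as a block. Ccng1, cyclin G1, was higher by 3.22 ± 0.25, adjusted p = 1.68e-06. Cdkn1a, p21, was at 3.04, 3.26 and 2.92 on the LN511 arrays and 2.01, -1.06 and 1.8 on the MH arrays, with MH replicate 2 low. It passed (2.16 ± 0.66, adjusted p = 0.0143) and lost its call with slide as a block (adjusted p = 0.261).

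Genes of protein synthesis and turnover changed by small amounts, where the scaling matters. Of 71 cytosolic ribosomal proteins 27 were lower, none was higher, and 44 did not pass (median -0.27). With quantile scaling 69 were higher and none lower (median 0.78), without scaling 5 were higher (median 0.24) and with the percentile over detected probes 19 (median 0.17), so no direction is given for this list. With slide as a block 4 were lower, without MH replicate 3 14. Of 45 ribosome biogenesis genes 22 were higher and 3 lower (median 0.35), or 6 higher with slide as a block. Nop56, of the small nucleolar particles, was higher by 1.85 ± 0.28, adjusted p = 0.000185. Of 38 proteasome subunits 35 were lower and none higher (median -1.08). The count was 12 with quantile scaling and 10 without scaling. Psmb8, a subunit of the immunoproteasome, was at 0.96, 0.85 and 1.09 on the LN511 arrays and 4.65, 3.6 and 4.51 on the MH arrays (-3.29 ± 0.28, adjusted p = 3.26e-06), and Psmb5, its constitutive counterpart, differed by -1.29 ± 0.14, adjusted p = 2.35e-05.

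Stress and supply pathways were mixed. Of 42 genes of the unfolded protein and integrated stress responses 12 were higher and 18 lower (median -0.49, or 0.02 without scaling), with 10 lower without scaling or with quantile scaling. The share that passed, 71.4%, was near the 67.6% over all genes, so these counts say nothing about the list. The serine synthesis enzymes Phgdh and Psat1 rose, by 5.32 ± 0.41, adjusted p = 1.71e-06 and 3.5 ± 0.18, adjusted p = 1.2e-07, and Asns, asparagine synthetase, by 3.93 ± 0.32, adjusted p = 2.26e-06. Phgdh was at 3.68, 2.75 and 3.44 on the LN511 arrays and -2.67, -1.28 and -2.14 on the MH arrays. Xbp1, a factor of secretory cells, and Edem1, of protein degradation from the endoplasmic reticulum, were lower, with differences of -2.07 ± 0.25, adjusted p = 4.49e-05 and -2.38 ± 0.3, adjusted p = 5.67e-05. Of 34 NRF2 targets 14 were higher and 10 lower (median 0.34), or 9 higher with slide as a block, 6 lower with quantile scaling and 4 lower without scaling. Slc7a11, the cystine transporter, was at least 60.5-fold higher (adjusted p = 4.78e-07) and Hmox1, haem oxygenase, was higher by 3.31 ± 0.37, adjusted p = 2.54e-05. Gpx1, the liver's main glutathione peroxidase, was lower (3.04, 4.11 and 3.37 on the LN511 arrays and 6.78, 6.76 and 6.99 on the MH arrays; -3.33 ± 0.3, adjusted p = 5.39e-06). Of 28 iron, haem and metallothionein genes 19 were lower and 3 higher (median -1.71). Alad, of haem synthesis, differed by -3.69 ± 0.19, adjusted p = 1.14e-07. Mt1, a metallothionein, was at 6.42, 6.49 and 6.68 on the LN511 arrays and 4.15, 6.41 and 4.52 on the MH arrays, with MH replicate 2 level with LN511, and its difference (1.5 ± 0.5, adjusted p = 0.0218) did not pass with slide as a block (adjusted p = 0.427), without LN511 replicate 3, or without MH replicate 1 or 3.

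Of 35 nutrient transporters 14 were higher and 15 lower (median 0.07), or 8 higher with slide as a block and 9 with normexp background correction. The median turned to -0.24 without MH replicate 2, to -0.03 without LN511 replicate 3 or with only the 6 arrays compared, and to -0.43 with the strict filter (5 higher and 8 lower of 16). Slc7a6 and Slc7a3, carriers of basic amino acids, were at least 29.4-fold and 12.1-fold higher. Of 24 genes of the insulin and growth hormone axis 10 were higher and 13 lower (median -1.4), or 5 higher with slide as a block. Igf1 was at -2.38, -2.48 and -2.21 on the LN511 arrays and 2.8, 2.48 and 2.88 on the MH arrays (-5.07 ± 0.28, adjusted p = 1.71e-07), and Igf1r, its receptor, was at least 19.9-fold higher (adjusted p = 3.35e-06). Igf2, the fetal growth factor, was at least 32.5-fold higher (adjusted p = 7.58e-06). Of 43 lysosome and autophagy genes 17 were lower and 7 higher (median -0.31). With quantile scaling 9 were lower and 18 higher (median 0.14), without scaling 8 and 9 (median 0.2), and with the percentile over detected probes 11 and 12 (median 0.13), so no direction is given for this list. With slide as a block 10 were lower and 4 higher. Of 17 clock genes 7 were lower and 3 higher (median -0.44, or 0.08 without scaling and 0.0 with the percentile over detected probes). Hlf, a clock-controlled factor of liver, was lower (-6.5 ± 0.71, adjusted p = 2.1e-05).

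**Figure D4:**
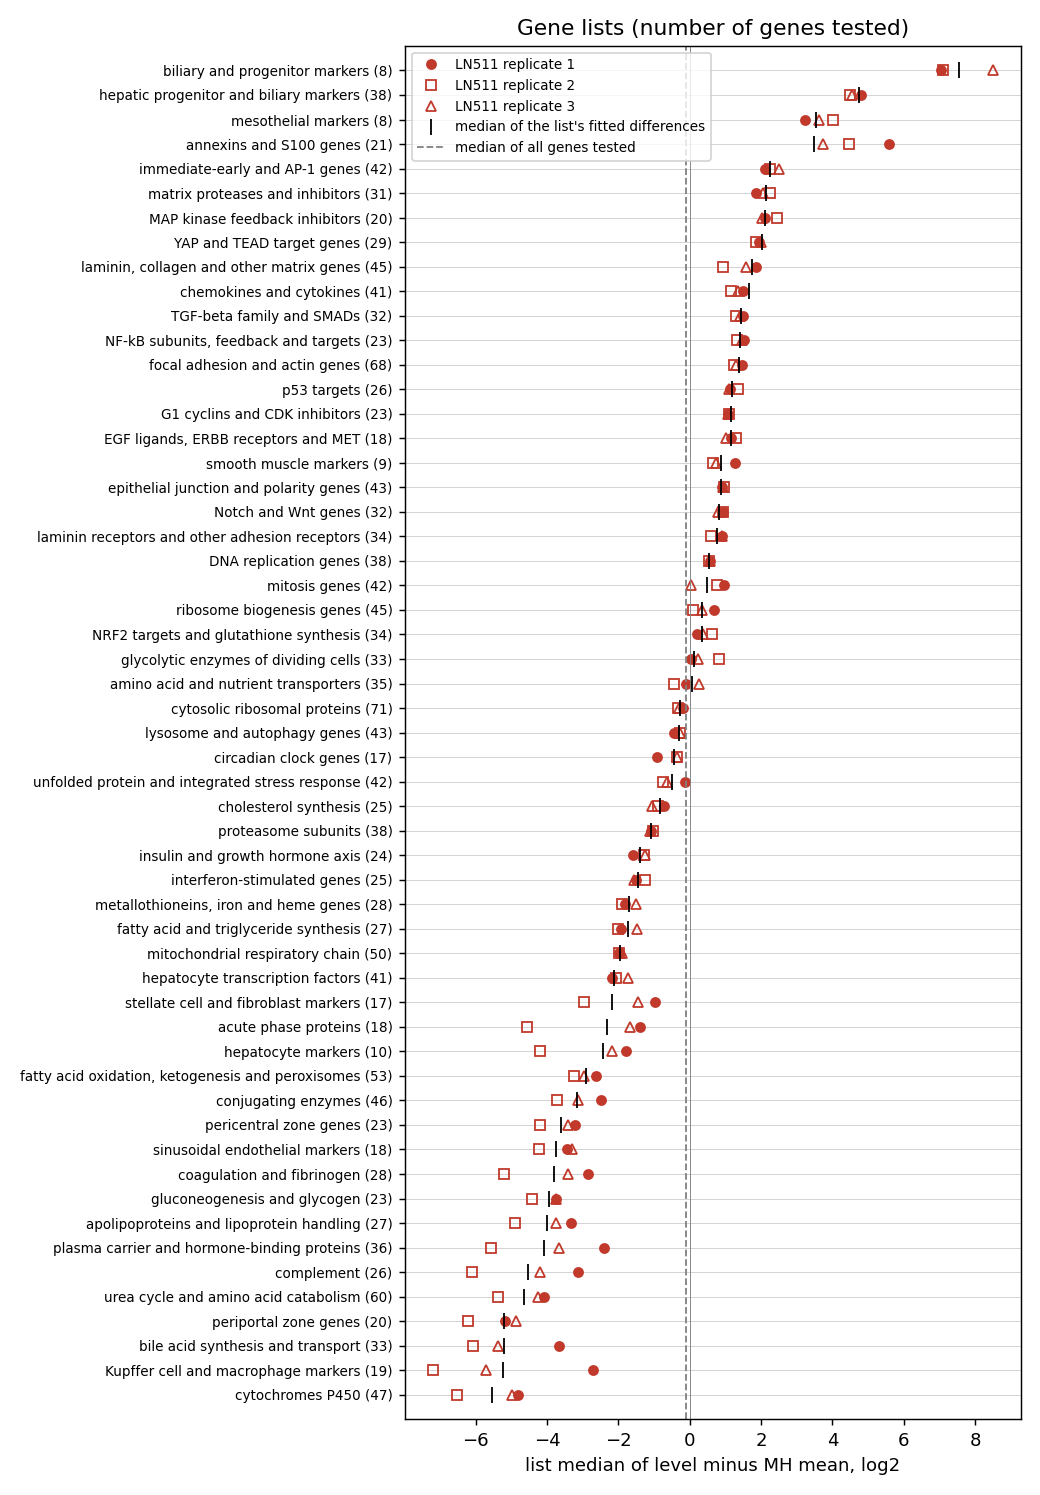
Median of each gene list with at least 5 genes tested, on each LN511 array minus the MH mean (log2), with the number of genes tested in brackets and a symbol per replicate. Liver function lists lie to the left, and progenitor, annexin and signalling lists lie to the right. Replicate 2 is lowest for secreted proteins and also for cytochromes P450, conjugating enzymes, amino acid breakdown and bile acid genes.

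Whether a difference from MH depended on the coating was asked by setting LN511 directly against LN111 and Mat, since the MH arrays are shared. Between LN511 and LN111, all on one slide, 3382 of 18927 genes (17.9%) passed, 2189 (11.6%) higher and 1193 (6.3%) lower in LN511. The count was 2210 without LN511 replicate 3. Without scaling the split turned to 504 higher and 1827 lower, with quantile scaling it was 1590 and 1689, and with normexp background correction 2818 and 848. Between LN511 and Mat 1708 (9.02%) passed, 1416 (7.48%) higher and 292 (1.54%) lower, or 396 in all with slide as a block. The count was 1101 without LN511 replicate 2, 1130 without LN511 replicate 3 and 824 without Mat replicate 1. Without scaling 465 were higher and 11190 lower, and with quantile scaling 825 and 518. The median difference from Mat was 0.13, and -0.97 without scaling, so that directions against Mat hold only relative to the scaling. The genes furthest above LN111 were Aig1, a membrane hydrolase of fatty acid esters, Abca12, a lipid transporter, Apcdd1l and Arid3a, a DNA-binding protein. Aig1 was at 2.58, 2.42 and 1.7 on LN511, -3.39, -1.19 and -3.08 on LN111, -1.86, -1.54 and -1.75 on Mat and 0.29, -0.41 and -0.11 in MH. It was thus higher than MH on LN511 (2.31 ± 0.5, adjusted p = 0.00201) and below MH on the other coatings, with differences of -2.47 on LN111 and -1.64 on Mat, and the difference from LN111 was 4.78 ± 0.5, adjusted p = 0.00053. Abca12 differed from LN111 by 4.75 ± 0.5, adjusted p = 0.000549 and from Mat by 4.02 ± 0.5, adjusted p = 0.00113. Against MH, neither Aig1 (adjusted p = 0.0695) nor Abca12 (adjusted p = 0.0976) passed with slide as a block. By the mean of its 3 probes Aig1 differed less from LN111 (1.66, adjusted p = 0.0562). The 4 genes ran in parallel. Over the 12 arrays the level of Abca12 minus that of Aig1 stayed between 0.52 and 0.83, with an SD of 0.1, while Abca12 itself had an SD of 2.0. For Apcdd1l and Arid3a the SD of that difference was 0.2 and 0.28. Whether their probes take up signal from a common transcript was not tested, and they are not counted as separate results.

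Biliary, junction and immediate-early genes were more often above LN111 than below it. Of the 38 progenitor and biliary genes 17 were above and 3 below LN111, and of the 43 junction genes 25 were above and 1 below. Without scaling these counts were 2 above and 5 below, and 5 above and 3 below, with list medians still above 0 (0.69 and 0.7). Cldn4 was higher than on LN111 by 2.55 ± 0.28, adjusted p = 0.000647 and than on Mat by 1.66 ± 0.28, adjusted p = 0.00536 (adjusted p = 0.157 against Mat with slide as a block and 0.128 without scaling). Of the 42 immediate-early genes 21 were above LN111 and none below (3 and 1 without scaling), and 7 were above Mat (none with slide as a block or without scaling). Ankrd1 was at -2.22, -0.27 and -0.62 on LN111, below its LN511 arrays (3.39 ± 0.51, adjusted p = 0.00212). Wnt11, a secreted signal, was above LN111 by 3.09 ± 0.49, adjusted p = 0.00266. Rsad2 was above LN111 by 2.84 ± 0.32, adjusted p = 0.000688.

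Matrix and mesenchymal genes were more often below. Of the 45 matrix genes 26 were below LN111 and 4 above, and 20 were below Mat and none above. Against LN111 between 25 and 29 were below under the other scalings, the background correction and the slide block, while against Mat only 1 was below with slide as a block. Their median difference from MH was 1.75 on LN511, 3.82 on LN111 and 2.89 on Mat. Actg2, smooth muscle gamma-actin, was at -2.75, -4.32 and -5.81 on LN511, 0.86, 1.25 and 1.09 on LN111 and -0.4, 0.09 and -0.31 on Mat, with LN511 below LN111 on every array (-5.36 ± 0.59, adjusted p = 0.000646). Twist1, a mesenchymal transcription factor, was well above background on 1 of 3 LN511 arrays (-4.04, -7.77 and -5.9) and at -0.36, -1.21 and 0.19 on LN111 (-5.45 ± 0.82, adjusted p = 0.00215). Col1a1 differed from LN111 by -4.14 ± 0.76, adjusted p = 0.00526. Of the 17 stellate cell and fibroblast markers 11 were below LN111 and none above, and of the 9 smooth muscle markers 6 were below and 1 above. The part of mesenchymal cells in the matrix result was not tested.

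**Figure D5:**
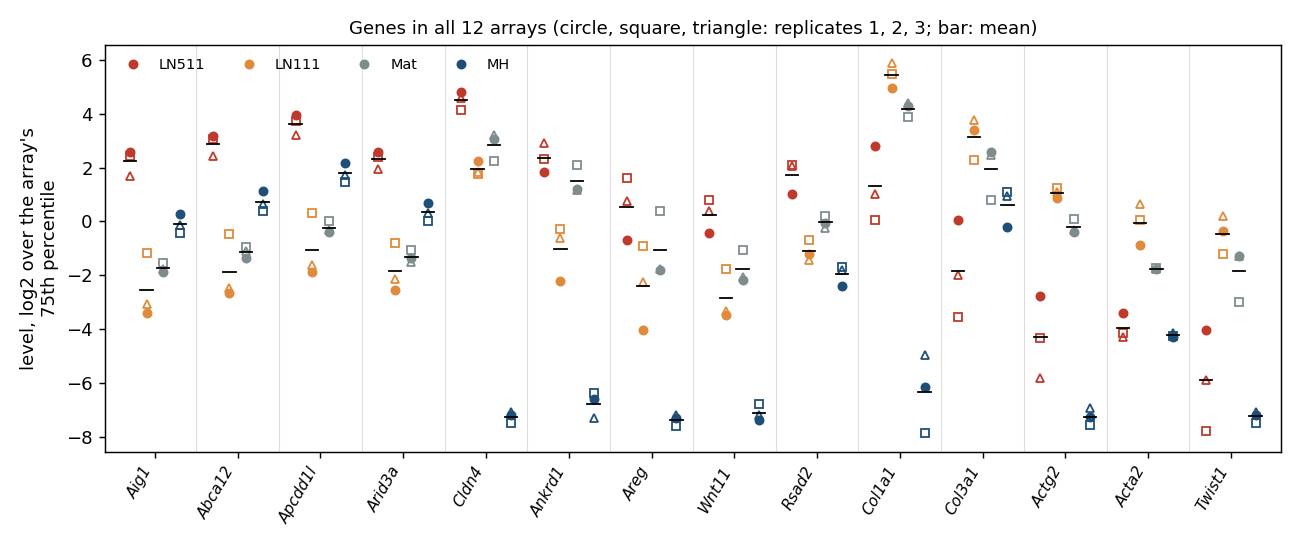
Levels of 14 genes (log2 minus the array's 75th percentile) on all 12 arrays, by coating and in MH, with a symbol per replicate and a line per group mean. Aig1, Abca12, Apcdd1l and Arid3a lie above MH on LN511 and below it on LN111 and Mat, while Actg2 and Twist1 lie lowest of the coatings on LN511.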

How the data were processed

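RNA from 12 samples was hybridised to single-colour Agilent arrays, and Agilent Feature Extraction 10.7 read the scans, per the submitters' processing notes. The deposited scanner files hold the processed signal intensity of each spot, which per the file headers is background-corrected. The authors' value table, used as an alternative, holds the same intensity without further scaling, within 0.0072 on the log2 scale. The depth of an array is not counted in reads, and 3 arrays a group limit the precision.

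Control spots and outlier flags were left out, spots of a probe averaged, and log2 intensity minus each array's 75th percentile taken. Of 45598 probes 45489 were kept. Of the probes, 21109 were named through the reference table by accession, 2754 by another accession, 5124 by symbol and 343 by an older symbol, and 16268 kept the file's name. Genes with a probe that all 3 arrays of a group measured well above background were tested, by the brightest probe. Of 2593 called genes with several probes 343 had probes of opposite sign. One limma 3.58.1 fit (R 4.3.3) of all 12 arrays gave differences ± SE, adjusted by Benjamini-Hochberg over 18927 genes, with a threshold of 0.05. "At least N-fold" sets the bright group's mean against the lowest signal above background, or the dim probe's own where higher.

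The groups and gene lists were chosen with earlier results of these data known. Genes named are the 12 largest changes each way on all 6 arrays, the 8 largest bounds each way, the first 5 members of each list with up to 4 of smallest adjusted p each way, the 5 largest differences from LN111 and Mat each way, and 16 of prior interest; the text takes part of these, and some are not reported here. Same-numbered LN511 and MH arrays showed no shared deviations (correlations of -0.014, 0.009 and -0.03). Pairing by number between the coatings was not checked.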

Additional observations from a re-analysis of the deposited data

Results flagged for a closer look

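The 4 named genes furthest above LN111 differed between coatings in the sign of their difference from MH. Their LN511 minus LN111 difference itself passed (limma, Benjamini-Hochberg). The other named genes were not searched for such a change of sign. In the opposite direction, the stellate cell and fibroblast list had a median against MH of -2.19 on LN511 and 1.63 on LN111. Of its 17 tested members 11 were below LN111. Aig1 was 2.31 above MH on LN511 and stood at -2.47 against MH on LN111, with a difference between the coatings of 4.78 ± 0.5, adjusted p = 0.00053. By the mean of its probes Aig1 did not pass against LN111, as given above. Against MH, neither Aig1 nor Abca12 passed with slide as a block. For Abca12 the coatings differed by 4.75 ± 0.5, adjusted p = 0.000549, for Apcdd1l by 4.7 ± 0.49, adjusted p = 0.000549 and for Arid3a by 4.14 ± 0.39, adjusted p = 0.000419. In each gene all 3 LN511 arrays were above, and all 3 LN111 arrays below, the 3 MH arrays. The levels of the 4 genes ran in parallel over all 12 arrays, as given above, and are not counted as separate results.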

How the results depend on the processing

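Of the 6 counts of genes, those against MH moved by over 1.5 times as follows. With slide as a fixed block 8389 genes were changed, 3825 higher and 4564 lower. With normexp background correction 3807 were higher and 6113 changed by at least 2-fold, and with the strict filter on dim probes, which tests fewer genes, 3242 and 5294. Without scaling 3782 were lower. Leaving out each array in turn gave 11817 to 12190 changed, 5464 to 5701 higher, 6338 to 6580 lower and 9087 to 9228 by at least 2-fold. With the replicate block 13167 were changed, although same-numbered LN511 and MH arrays showed no shared deviations. That block gave 4106 against LN111 and 2054 against Mat. Against LN111, 1991 passed with the strict filter, 1900 with only the 6 arrays compared, and 2210 to 4337 with each array left out. Against Mat, 5361 passed with normexp, 11655 without scaling, 6080 without a filter, 898 with the strict filter, 396 with the slide block and 824 to 1383 with each array left out. Signs turned for Alb (0.36, quantile), Dag1 (0.0 with normexp, 0.79 quantile, 0.4 without scaling, 0.33 with the percentile over detected probes), Fasn (0.14, quantile; -2.14 to 0.45 with an MH array left out), Wt1 (-0.03, normexp) and Dpp4 (0.46 quantile, 0.37 without scaling, 0.29 with the percentile over detected probes, 0.5 with the slide block, -0.59 to 0.3 with an array left out). The cause was not tested. For the 213 differences of named genes, 3836 of 3972 alternative values kept direction and side of the threshold, 99 no longer passed and 23 passed where the reported value did not. Of the 1083 medians of the 57 gene lists under an alternative, 262 moved by more than the spread between arrays and 19, in 10 lists, turned sign; those lists are named in the text. With the strict filter counts also fell by over 1.5 times where no median turned. Fewer members were tested as well. Lower members were 5 of 8 tested for Kupffer cell, 3 of 6 for endothelial and 12 of 16 for bile acid genes. In that order the medians were -2.5, -0.57 and -2.99, against -0.25 over all genes. Higher members were 14 of 19 for progenitor markers, 7 of 20 for adhesion receptors and 12 of 26 for matrix genes (medians 2.71, 0.15 and 0.67). They were 8 of 12 for feedback inhibitors of MAP kinases, 12 of 21 for YAP and TEAD targets and 10 of 20 for the TGF-beta family. The medians of these were 1.71, 1.0 and 0.7. For matrix proteases 14 of 18 were higher (median 2.19), and for the insulin and growth hormone axis 6 of 17 (median -1.63). Arrays bound a low level by their background and not by a count. A gene is given as a bound only where every array of one group and none of the other measured it well above background. Where only some arrays of a group did, as for Cps1 and Twist1, the difference is given and rests in part on signals near background.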
